A study of Mus musculus with 8 samples.

Results

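Cluster C2 is a group of luminal mammary epithelial cells from nulliparous mice in which transcripts of hormone-sensing cells and of luminal progenitors were both found. Its members are the cells that the authors' annotation assigns to C2 and that passed their quality filters: 265 cells of the first and 169 of the second nulliparous (NP) mouse, 434 in all. Of the 25010 cells that passed in the whole series, 441 belonged to C2, and the remaining 7 came from post-involution glands. The series holds 8 libraries of C57BL/6N females, with 2 mice at each of 4 stages and 1 mouse per library. Both NP mice were 8 weeks old and in oestrus by vaginal smear. Gestation glands were taken at day 14.5 and post-involution (PI) glands at day 11 after natural weaning. By smear the first PI mouse was in dioestrus and the second in oestrus. Live EpCAM-positive single cells negative for CD31, CD45 and Ter119 were sorted, which selects epithelium over endothelial, leukocyte and red cells. C2 was compared with C4 (971 and 1212 cells), which the study calls differentiated hormone-sensing cells, and with C6 (372 and 316 cells), its luminal progenitors. Basal cells of C12 (504 and 282 cells) gave the background level of hormone receptor transcripts.

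In the mammary duct, hormone-sensing luminal cells carry the receptors for oestrogen, progesterone and prolactin and pass the signal on through secreted factors such as amphiregulin, Wnt4 and RANKL. Luminal progenitors lack most of these receptors, depend on the transcription factor Elf5 and are recognised by the receptor tyrosine kinase Kit and the retinaldehyde dehydrogenase Aldh1a3. Cells that combine both sets of transcripts are of interest as a possible restricted progenitor of the hormone-sensing lineage. The comparison asks how the transcriptome of such cells stands to that of the other luminal clusters of the same glands.

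C2 made up 12.2% of the passed cells of the first NP mouse (265 of 2166, exact 95% binomial interval 10.9 to 13.7%) and 8.22% of those of the second (169 of 2057, 7.07 to 9.49%). Among the cells of C2, C4 and C6 together the shares were 16.5% and 9.96%. The intervals cover counting error only, and the shares of the mice lay further apart than these intervals. No C2 cell was assigned in gestation or lactation. The authors' quality filter had removed cells whose barcode appeared in several libraries, so no barcode of a C2 cell occurred in another library. The UMIs (unique molecular identifiers, each marking 1 captured transcript) of all C2 cells added up to 5173562 and 3460745. They were summed per mouse and cluster and expressed as CPM (counts per 1e+06 UMIs). Fold changes were taken within each mouse on log2(CPM + 1), and 9151 genes with a mean of at least 5 CPM over the 6 sums were compared. The clusters had been defined on these same counts and there were 2 mice, so all differences between clusters are descriptions without a test. An exact sign-flip permutation test over 2 mice could not go below p = 0.5.

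All 3 hormone receptors that mark the hormone-sensing lineage were present in C2, below their level in C4. Prlr, the prolactin receptor (chromosome 15, 10177238 to 10349180, GRCm38), stood at 1602 and 1578 CPM in C2 of the 2 mice, at 2277 and 2225 CPM in C4 and at 80.6 and 90.4 CPM in C6. Its mean was 1590 ± 16.7 CPM (SD, n = 2) in C2 and 2251 ± 36.6 in C4. The mice did not overlap between clusters, and C12 held 198 and 221 CPM, more than C6. Pgr, the progesterone receptor (chromosome 9, 8899833 to 8968611), was found at 110 and 105.5 CPM in C2, 158.5 and 141 in C4, and 5.13 and 2.90 in C6. Esr1, the oestrogen receptor alpha (chromosome 10, 4611593 to 5005614), was found at 64.0 and 70.5 CPM in C2, 80.3 and 91.0 in C4, and 5.13 and 6.63 in C6. In all 3 receptors C2 therefore lay between the other clusters and nearer to C4, by a log2 fold of −0.51 and −0.50 for Prlr, −0.52 and −0.42 for Pgr and −0.32 and −0.36 for Esr1 against C4.

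Both progenitor markers were present as well, below their level in C6. Aldh1a3, which makes retinoic acid from retinaldehyde (chromosome 7, 66390890 to 66427517), stood at 737 and 553 CPM in C2, 2035 and 1759 in C6, and 39.4 and 15.0 in C4. Kit, the receptor for stem cell factor (chromosome 5, 75574916 to 75656722), stood at 29.2 and 29.5 CPM in C2, 63.7 and 78.8 in C6, and 2.45 and 0.689 in C4. Against C4 the log2 folds were 4.19 and 5.11 for Aldh1a3 and 3.13 and 4.17 for Kit. Against C6 they were −1.46 and −1.67, and −1.10 and −1.39. The 5 markers named for C2 were thus all detected in it, and none of them was higher in C2 than in both other clusters. Luminal keratins were high in all 3 clusters: Krt8 stood at 4989 and 3906 CPM in C2, 5390 and 3901 in C4 and 6329 and 5131 in C6.

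**Figure D1:**
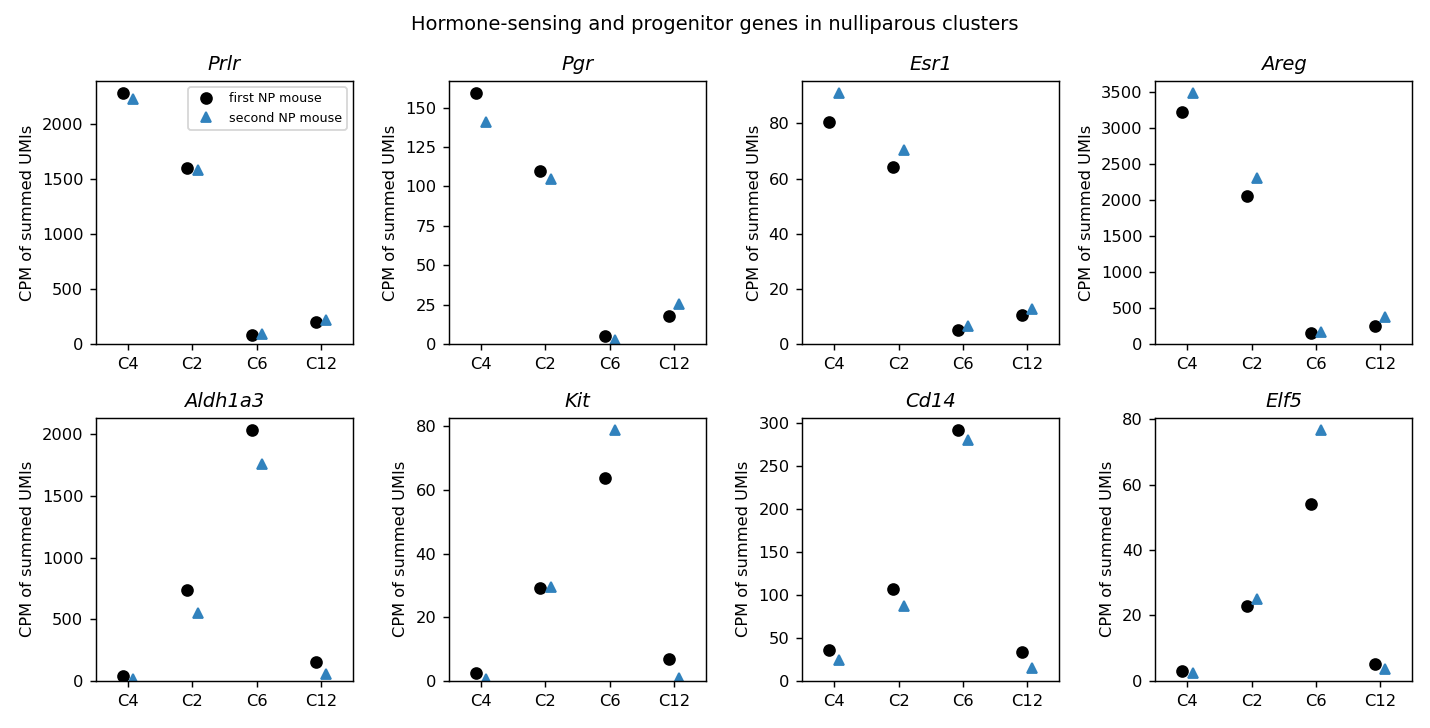
Level of 8 genes (CPM of summed UMIs, vertical axis from 0) in clusters C4, C2, C6 and C12, with 1 point per NP mouse. C2 lies between C4 and C6 for every gene shown, as for Prlr at 1602 and 1578 CPM against 2277 and 2225 in C4 and 80.6 and 90.4 in C6.

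C2 cells held more UMIs than those of either neighbour. The median was 16399 and 16877 UMIs per cell in C2, against 10163 and 10309 in C4, 7768 and 6597 in C6, and 6046 and 6303 in C12. The median number of genes detected was 4058 and 3959 in C2, 2954 and 2797 in C4, and 2549 and 2231 in C6. In the first mouse 90.9% of C2 cells lay above the C4 median and 97.4% above the C6 median, and in the second 95.3% and 98.2%. The mean of C2 was 19523 and 20478 UMIs per cell, which is 0.889 and 1.04 times the sum of the means of C4 and C6 (21954 and 19601). The mitochondrial share of UMIs was at a median of 0.793% and 0.880% in C2, 0.789% and 0.914% in C4, and 0.654% and 0.688% in C6.

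**Figure D2:**
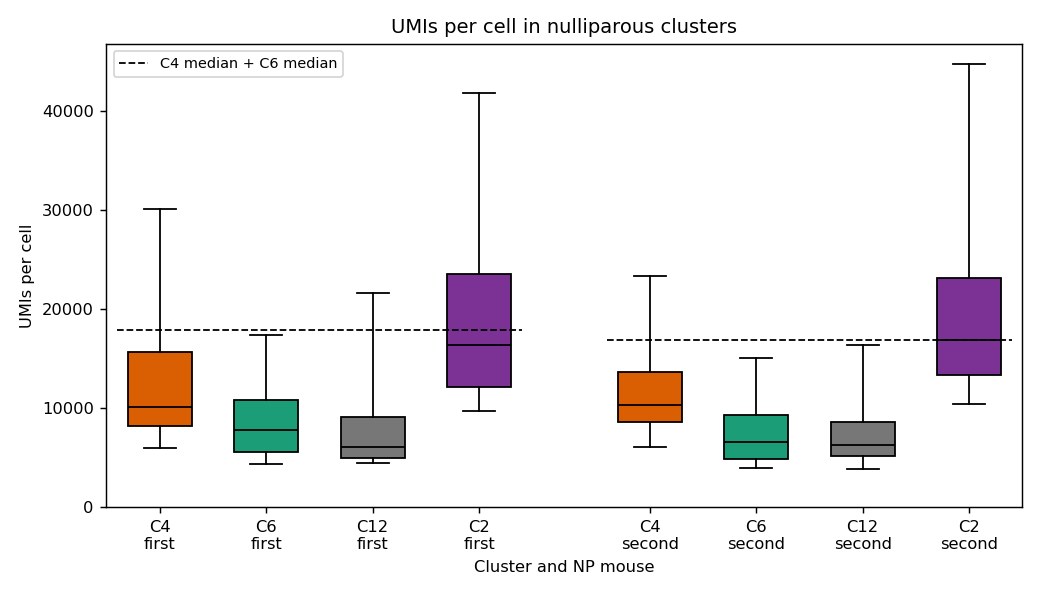
UMIs per cell (vertical axis) in C4, C6, C12 and C2 of the 2 NP mice. Boxes give the quartiles and median, whiskers the 5th and 95th percentiles, and the dashed line the C4 median plus the C6 median (17931 in the first and 16906 in the second mouse), beside C2 medians of 16399 and 16877.

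Counted per cell rather than as CPM, C2 held on average about as many receptor transcripts as C4 and about as many progenitor transcripts as C6. Prlr gave 31.3 and 32.3 UMIs per cell in C2 and 29.7 and 26.6 in C4. Pgr gave 2.15 and 2.16 in C2 and 2.07 and 1.69 in C4, and Esr1 1.25 and 1.44 in C2 and 1.05 and 1.09 in C4. Aldh1a3 gave 14.4 and 11.3 UMIs per cell in C2 and 18.1 and 13.4 in C6. For Kit the values were 0.570 and 0.604 in C2 and 0.567 and 0.601 in C6, and for Cd14 2.08 and 1.78 in C2 and 2.6 and 2.14 in C6. Levels per cell were thus roughly alike for genes of both programmes, and the same was seen over many genes. The 340 genes at least 4-fold higher in C4 than in C6 in both mice (3.72% of those compared) together gave 865 and 878 UMIs per cell in C2, 907 and 797 in C4, and 55.0 and 52.2 in C6. The 413 genes at least 4-fold higher in C6 (4.51%) gave 549 and 538 UMIs per cell in C2, 641 and 556 in C6, and 75.6 and 54.9 in C4. Over all 9151 genes, the UMIs per cell in C2 were at a median of 0.887 and 1.045 times the sum of C4 and C6, and 8754 and 8781 genes lay within 1.5-fold of that sum. These medians lay close to the ratio of the mean UMIs per cell (0.889 and 1.04), so they add little to that ratio. Of the 340 genes higher in C4, 327 and 322 lay within 1.5-fold of the sum, at median ratios of 0.947 and 1.14. Of the 413 genes higher in C6, 348 and 358 did, at median ratios of 0.791 and 0.919. Whether 2 cells captured under 1 barcode have a part in these levels was not tested.

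Transcripts of both programmes were found under the same barcodes. Prlr and Aldh1a3 were detected together in 245 of 265 C2 cells of the first mouse (92.5%, 88.6 to 95.3%) and 155 of 169 of the second (91.7%, 86.5 to 95.4%). In C4 the shares were 24.9% in the first mouse and 146 of 1212 cells in the second, in C6 36.0% and 36.4%, and in C12, where receptor transcripts are taken as background, 12.5% and 5.67%. At an equal depth of 3000 UMIs drawn from every cell, both genes were detected in 65.3% and 59.8% of cells in C2, 8.86% and 3.88% in C4, 12.6% and 16.5% in C6, and 3.77% and 2.48% in C12. No C2 cell was too shallow to be thinned, and the C2 share was above that of the other clusters at equal depth in both mice. Since C2 was cut on these same counts, a higher share of joint detection is in part built in. Single receptors were found in similar shares of C2 and C4 cells as sequenced: Pgr in 72.1% and 72.2% of C2 cells and in 74.3% and 66.9% of C4 cells, and Esr1 in 62.3% and 66.9% of C2 and 56.6% and 61.1% of C4. In C12 a UMI of Pgr was found in 7.14% and 9.22% of cells, and one of Esr1 in 6.75% and 8.87%. At 3000 UMIs, Pgr was found in 23.8% and 21.9% of C2 cells and 33.8% and 30.8% of C4 cells. Esr1 was found at that depth in 21.1% and 14.8% of C2 cells and 19.3% and 23.5% of C4 cells, so the mice differed in direction. Kit was found in 36.6% and 37.3% of C2 cells as sequenced and 38.2% and 39.9% of C6 cells. At 3000 UMIs the Kit shares were 8.30% and 8.88% in C2 and 17.5% and 21.2% in C6.

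Against C4, C2 was at least 2-fold higher in 428 genes in both mice (4.68% of those compared) and at least 2-fold lower in 3 (0.0328%). The highest folds belonged to genes of the luminal progenitor side, and each of them was lower in C2 than in C6. Wfdc18, a secreted protein with a whey acidic protein domain, stood at 1589 and 1611 CPM in C2, 97.7 and 49.8 in C4, and 4454 and 5640 in C6. Trf, the iron carrier transferrin, stood at 376 and 347 CPM in C2, 19.7 and 9.58 in C4, and 1171 in C6 of each mouse. Csn3, the milk protein kappa-casein, stood at 187 and 332 CPM in C2, 13.1 and 9.93 in C4, and 743 and 1413 in C6. Between the mice the Csn3 level of C2 and of C6 differed in the same direction. Car2 (carbonic anhydrase 2), Igfbp5 (a binding protein of insulin-like growth factors), Muc15 (a membrane mucin), 3110079O15Rik and Aldh1a3 completed the highest 8, at log2 folds of 3.51 to 5.24 against C4 in single mice.

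The 3 genes lower in C2 than in C4 were Upk3a, Ido1 and Mgp. Ido1, the tryptophan-degrading indoleamine dioxygenase, stood at 70.4 and 38.7 CPM in C2, 164 and 94.6 in C4, and 3.32 and 2.90 in C6. Mgp, the matrix Gla protein that inhibits calcification, stood at 43.9 and 49.7 CPM in C2, 102 and 116 in C4, and 11.2 and 10.4 in C6. Upk3a, a uroplakin of apical membranes, stood at 29.6 and 12.4 CPM in C2, 68.9 and 97.9 in C4, and 1.51 and 10.8 in C6. Each of the 3 was lower per cell as well, with Ido1 at 1.37 and 0.793 UMIs per cell in C2 and 2.15 and 1.13 in C4. The count of 3 rests on agreement of the mice: each NP mouse alone gave 19 genes.

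Against C6, C2 was at least 2-fold higher in 659 genes (7.20%) and lower in 326 (3.56%) in both mice. Without the first NP mouse the lower genes numbered 543. The highest 8 were genes of the hormone-sensing side. Ptn, the growth factor pleiotrophin, stood at 3459 and 2952 CPM in C2, 6684 and 5269 in C4, and 145 and 141 in C6. Fgb, the beta chain of fibrinogen, stood at 457 and 498 CPM in C2, 824 and 823 in C4, and 15.99 and 19.5 in C6. Slc35f3, a solute carrier, stood at 30.4 and 36.4 CPM in C2 and 50.3 and 50.9 in C4. It gave 0.905 CPM in C6 of the first mouse and no UMI in C6 of the second, where a count of 0 allows up to 1.24 CPM. Pgr, Snhg11 (a long non-coding RNA), Fam25c, Defb1 (a beta-defensin) and Nrxn3 (a neurexin) were the others, at log2 folds of 4.18 to 4.80, and all of them were lower in C2 than in C4 in both mice.

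Among the genes lower in C2 than in C6, S100a8, a calprotectin subunit, had the lowest fold, at 1.74 and 6.36 CPM in C2, 19.9 and 39.8 in C6, and 0.316 and 0.414 in C4. Csn3 came next, with log2 folds of −1.98 and −2.09. The others were Grasp, Eepd1, C2cd4b, Ccrl2 (a chemokine receptor-like protein), Cbr2 (a carbonyl reductase) and G0s2 (an inhibitor of triglyceride lipase). Of these, C2cd4b had the highest level, at 72.3 and 37.0 CPM in C2, 257 and 163 in C6, and 7.34 and 2.96 in C4. All 8 were higher in C2 than in C4 in both mice.

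Gene lists showed the same order by role. Over all genes compared, 4.68% were called higher in C2 than in C4, 7.20% higher than in C6 and 3.56% lower than in C6. These shares apply to every list count below. Of 5 compared paracrine signals, 4 were at least 2-fold higher in C2 than in C6 and 1 was lower (list median log2 fold 3.75 against C6 and −0.15 against C4, beside −0.01 and 0.03 over all genes compared). Areg, the epidermal growth factor receptor ligand amphiregulin, stood at 2052 and 2306 CPM in C2, 3216 and 3479 in C4, and 154 and 168 in C6. Wnt4, which acts on basal cells downstream of progesterone, stood at 104 and 118 CPM in C2, 114 and 133 in C4, and 19.6 and 8.71 in C6. Both therefore lay nearer to C4 than to C6. Calca, which encodes calcitonin and CGRP, stood at 113 and 46.5 CPM in C2, 131 and 43.4 in C4, and 5.43 and 1.66 in C6, and Wnt5a, a ligand of non-canonical Wnt signalling, at 72.5 and 87.8 CPM in C2, 105 and 103 in C4, and 3.32 and 4.15 in C6. Rspo1, a secreted enhancer of Wnt signalling, had the opposite order, at 7.15 and 5.78 CPM in C2, 0.631 and 0.138 in C4, and 29.6 and 17.4 in C6. Tnfsf11, which encodes RANKL, was under the level filter, at 1.93 and 0.867 CPM in C2. Of 8 compared nuclear and membrane hormone receptors, Esr1, Pgr and Prlr were called higher than in C6, and Nr3c1, the glucocorticoid receptor, higher than in C4 and lower than in C6, at 41.9 and 40.7 CPM in C2, 13.3 and 12.4 in C4, and 96.6 and 95.8 in C6.

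Of 12 compared transcription factors of the hormone-sensing lineage, 6 were called higher in C2 than in C6, and none was called against C4. Foxa1, the pioneer factor of oestrogen receptor binding, stood at 90.1 and 85.8 CPM in C2, 109 and 106 in C4, and 17.5 and 16.6 in C6. Msx2, a homeobox factor, stood at 37.7 and 40.5 CPM in C2, 72.0 and 62.5 in C4, and 1.81 and 3.32 in C6. The 6 called were Foxa1, Cited1, Msx2, Tbx3, Tox2 and Spdef, and Gata3, required for luminal identity, was not called, at 101 and 118 CPM in C2, 124 and 143 in C4, and 67.6 and 103 in C6. Cited1, a transcriptional coactivator, stood at 376 and 258 CPM in C2, 729 and 497 in C4, and 19.3 and 15.8 in C6. All 4 surface markers of hormone-sensing cells (Ly6a, Ly6d, Prom1 and Cd24a) were called higher in C2 than in C6. Ly6a, the stem cell antigen Sca-1, was at 488 and 349 CPM in C2 against 909 and 724 in C4 and 49.2 and 45.2 in C6.

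All 6 compared surface markers of luminal progenitors were called higher in C2 than in C4 and lower than in C6, with list medians of 2.22 and −1.54. Besides Aldh1a3 and Kit these were Cd14, Tspan8, Itga2 and Cd55. Cd14, a receptor for lipopolysaccharide, stood at 106 and 86.7 CPM in C2, 36.6 and 24.2 in C4, and 292 and 280 in C6. Itgb3, the integrin beta 3 chain CD61, was under the level filter, at 0.967 and 1.73 CPM in C2. Of 10 compared progenitor transcription factors, the same 5 were called higher than in C4 and lower than in C6: Elf5, Fosl1, Sox10, Foxc1 and Cebpb. Elf5, the factor of the alveolar and progenitor lineage, stood at 22.8 and 25.1 CPM in C2, 3.08 and 2.55 in C4, and 54.0 and 76.7 in C6. Foxc1 stood at 21.5 and 19.7 CPM in C2, 1.97 and 1.03 in C4, and 57.0 and 65.5 in C6. The levels of both factors in C2 were several-fold above C4 and below C6 in each mouse.

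Among signalling genes, members of either side were found in C2. The shares called over all genes were 4.68% (higher than in C4), 7.20% (higher than in C6) and 3.56% (lower than in C6). In lists this short, 1 called gene is no result about the list. Of 10 compared genes of the epidermal growth factor family, 4 were higher in C2 than in C4, 3 higher than in C6 and 2 lower than in C6. Egfr, the receptor for Areg, stood at 21.8 and 24.0 CPM in C2, 1.58 and 1.45 in C4, and 61.6 and 57.2 in C6. The C2 means were 0.426 and 0.491 UMIs per cell of Egfr and 40.1 and 47.2 of Areg, and their detection under the same barcode was not tested. In the prolactin pathway, Jak2, the kinase bound to the receptor, stood at 59.5 and 58.4 CPM in C2, 55.9 and 57.2 in C4, and 24.1 and 22.0 in C6. Cish, a feedback inhibitor induced by STAT5, ran the other way, at 24.2 and 28.0 CPM in C2, 9.55 and 9.79 in C4, and 52.2 and 55.2 in C6. Of the 8 genes compared, 1 was called higher than in C4 and 3 higher than in C6. Of the 7 compared retinoid genes, 3 were called higher than in C4, Aldh1a3 and Crabp2 among them. Against C6, 1 was called higher and 3 lower. Crabp2, which carries retinoic acid to the nucleus, stood at 44.1 and 43.9 CPM in C2, 6.24 and 3.24 in C4, and 150 and 159 in C6. The receptor Rara stood at 51.8 and 53.2 CPM in C2, 53.7 and 54.7 in C4, and 53.7 and 55.2 in C6, with little difference between the clusters. Of 8 compared Notch genes, the ligand Jag1 was called higher than in C6, at 11.98 and 14.7 CPM in C2, 19.2 and 19.1 in C4, and 3.92 and 2.49 in C6, and the target Nrarp higher than in C4 and lower than in C6, at 14.5 and 15.9 CPM in C2, 6.16 and 6.69 in C4, and 48.0 and 35.7 in C6.

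Secreted immune factors followed the progenitor side. Of 8 compared chemokines and colony-stimulating factors, 4 were called higher than in C4 and 4 lower than in C6. Cxcl1, which attracts neutrophils, stood at 1047 and 1142 CPM in C2, 150 and 132 in C4, and 2651 and 2837 in C6. Csf3, the granulocyte colony-stimulating factor, stood at 296 and 297 CPM in C2, 22.7 and 18.2 in C4, and 852 and 952 in C6. In the antimicrobial list, 5 of 7 were called higher than in C4 and 5 lower than in C6. Lcn2, the iron-sequestering lipocalin, stood at 999 and 958 CPM in C2, 84.3 and 42.4 in C4, and 3252 and 3485 in C6. Wfdc2 alone in this list was called higher than in C6, at 1018 and 861 CPM in C2, 1928 and 1629 in C4, and 88.7 and 81.3 in C6. Of 6 compared genes of the insulin-like growth factor axis, 3 were called higher than in C4 and 3 lower than in C6. Igf1r, its receptor, stood at 24.2 and 21.1 CPM in C2, 2.76 and 1.86 in C4, and 50.1 and 47.3 in C6. Of 11 glutathione genes, 4 were called higher than in C6, 1 lower than in C6 and 1 higher than in C4. Gpx3, a secreted peroxidase, had 2093 and 1101 CPM in C2, 2770 and 1644 in C4, and 126 and 83.8 in C6, whereas Mgst1 had 177 and 197 in C2, 47.4 and 35.7 in C4, and 483 and 570 in C6.

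**Figure D3:**
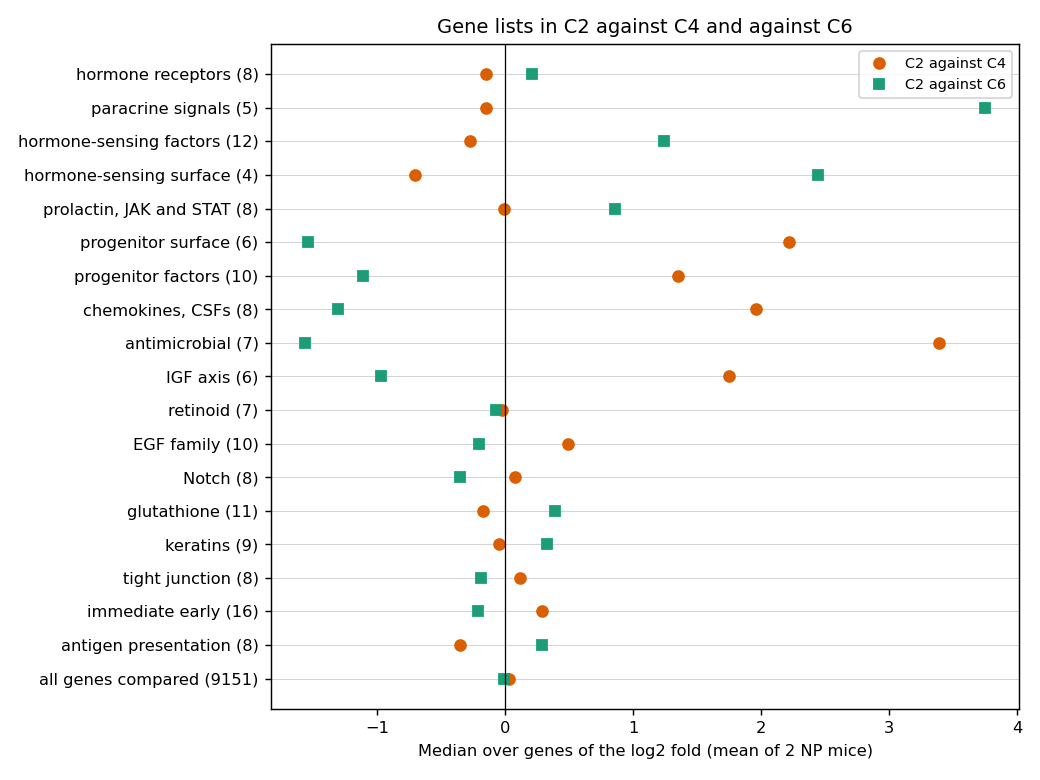
Median log2 fold of C2 against C4 (circles) and against C6 (squares) over the compared genes of each list (number in brackets, horizontal axis in log2 units, mean of 2 NP mice). Lists of the progenitor side lie above 0 against C4 and below 0 against C6, as at 2.22 and −1.54 for the progenitor surface markers, and those of the hormone-sensing side the other way round.

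Few genes of C2 lay outside the range of C4 and C6 by 1.5-fold or more. Of the 9151 genes, 4915 (53.7%) lay between C4 and C6 in both mice, and the rest lay outside that range in at least 1 mouse. A single gene, Unkl, lay at least 1.5-fold above both C4 and C6 in both mice (0.0109% of the genes compared), at 7.93 and 7.51 CPM in C2, 4.58 and 3.998 in C4, and 4.23 and 3.73 in C6. None lay 1.5-fold below both (0%). With every cell of the 3 clusters thinned to 3000 UMIs, which leaves fewer UMIs behind each value, 15 genes lay above both and 36 below, and with C2 cells up to the 90th percentile of C4 and C6 depth 0 and 2. The first mouse alone gave 14 genes above and 13 below, and the second mouse alone 10 above and 22 below. On a scale on which 0 is the C6 level of a gene and 1 its C4 level, the 340 C4-side genes had a median position of 0.639 and 0.670 in C2, with quartiles of 0.562 and 0.739 in the first and 0.580 and 0.756 in the second mouse. The 413 C6-side genes gave nearly the same median, 0.653 and 0.668, with quartiles of 0.598 and 0.700, and 0.612 and 0.723. Of these 753 genes, 748 and 742 lay between 0 and 1.

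A weighted mean of C4 and C6, with the median position of each mouse as the weight of C4 (0.648 and 0.669), was then set beside the C2 level for the 5471 genes at 20 CPM or more. Spearman's rho across genes, which are not independent replicates, was 0.982 in each mouse for the weighted mean, 0.911 and 0.915 for C4 alone and 0.837 and 0.823 for C6 alone. The log2 difference between C2 and the weighted mean had an SD over genes of 0.182 and 0.190. The weight was taken from the C2 levels themselves, so a close fit is in part built in. Between the C2 sums of the mice the SD was 0.221, which also holds differences between mice and is not a like measure. No gene lay 1.5-fold above the weighted mean in both mice (0%), and 3 lay below it (0.0548%), namely Mgp, Ido1 and Upk3a. Of the sum of the mean UMIs of C4 and C6, C4 made up 59.4% and 61.1%, which is under the weight in both mice. What sets the weight was not tested.

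**Figure D4:**
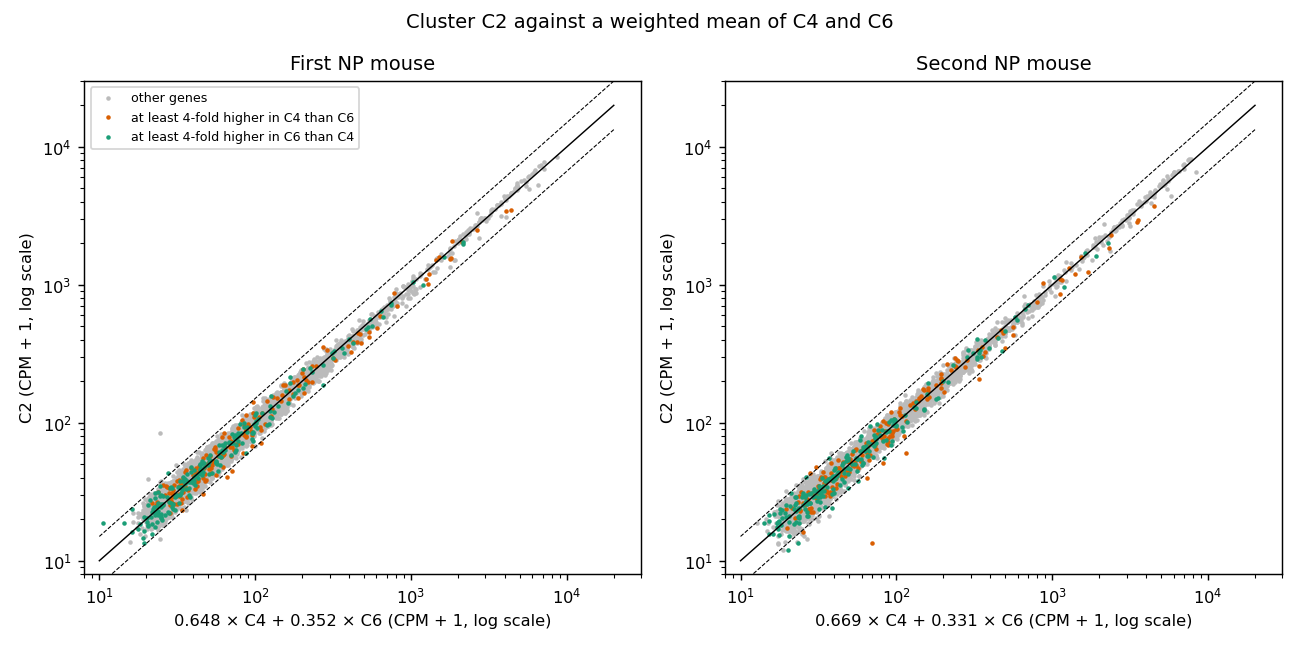
C2 level of each gene (vertical axis, CPM + 1, log scale) against the weighted mean of C4 and C6 (horizontal axis, CPM + 1, log scale), for 5471 genes in each NP mouse. The solid line marks equality and the dashed lines 1.5-fold either way, and 14 and 29 genes lie outside them in the first and second mouse.

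The same measures, taken after these results were seen, were set beside those of 2 other clusters. The study screened its clusters for doublets by their frequency and their correlation with pairs of other clusters, and only C20 of gestation glands met its criterion and was set aside, with the alveolar cluster C8 and the basal cluster C13 as its pair. C2 was too frequent in both mice to meet that criterion, which took only clusters under a limit of frequency. Its frequency alone thus settled the outcome for C2, and whether its profile would have met the part on correlation was not tested. C20 had 1 gene above and none below both C8 and C13 (0.0105% and 0% of 9548), 5 of 5599 genes off the weighted mean in both mice (4 above and 1 below, 0.0714% and 0.0179%), and a mean of 0.714 and 0.654 times the summed UMIs of C8 and C13. C1, the post-involution cluster that shares the name of hormone-sensing progenitors with C2, had no gene above or below both of C3 and C7 (0% of 9048), no gene off the weighted mean, and 1.03 and 0.968 times their summed UMIs. The ratio of UMIs in C2 (0.889 and 1.04) was thus above that of C20 in both mice. In C1, Prlr gave 24.0 and 21.5 UMIs per cell against 20.5 and 19.2 in C3, and Kit gave 0.383 and 0.413 against 0.381 and 0.401 in C7. C20 made up 3.65% and 6.82% of the cells of its mice and C1 7.38% and 9.18%, beside 12.2% and 8.22% for C2. Differences between these clusters were not tested.

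Between single cells, C2 varied along the line from C6 to C4. A position was computed for each cell from its UMIs of the 753 genes, with 0 at the C6 median and 1 at the C4 median. C2 cells had a median of 0.658 and 0.650, with quartiles of 0.529 and 0.755 in the first and 0.529 and 0.743 in the second mouse. Between 0.2 and 0.8 lay 234 of the 265 and 156 of the 169 C2 cells, against 6 of 971 and 9 of 1212 C4 cells and 1 of 372 and 7 of 316 C6 cells. The range between C4 and C6 thus held mostly C2 cells, which the way clusters are cut sets in part. The number of UMIs did not run in one direction along it: the median was 18147 and 17211 UMIs in the C2 cells nearest C6, 14723 and 15856 in those in the middle, and 18049 and 17426 in those nearest C4, when the C2 cells of each mouse were ranked by position and divided into 3 equal parts.

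Each passed NP cell was also scored, by a measure added after the first results, for its share of UMIs from 176 genes particular to C4, 109 to C6 and 287 to C12, each at least 4-fold above the other two clusters in both mice and scaled to 1 at the median of its own cluster. C2 cells had a median of 0.632 and 0.628 of the C4 score, 0.359 and 0.335 of the C6 score, and 0.035 and 0.027 of the C12 score. A C4 and a C6 score of at least 0.25 together were found in 226 and 138 cells, of which 214 and 125 were in C2. A C4 and a C12 score together were found in 26 and 25 cells, and a C6 and a C12 score in 71 and 49, none of them in C2. Of the cells with a C4 and a C12 score, 23 and 19 were in C12, and of those with a C6 and a C12 score, 49 and 15. C12, used above as background for receptor transcripts, thus holds some cells with a luminal score. C12 is larger than C6 in the first mouse (504 against 372 cells) and smaller in the second (282 against 316).

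**Figure D5:**
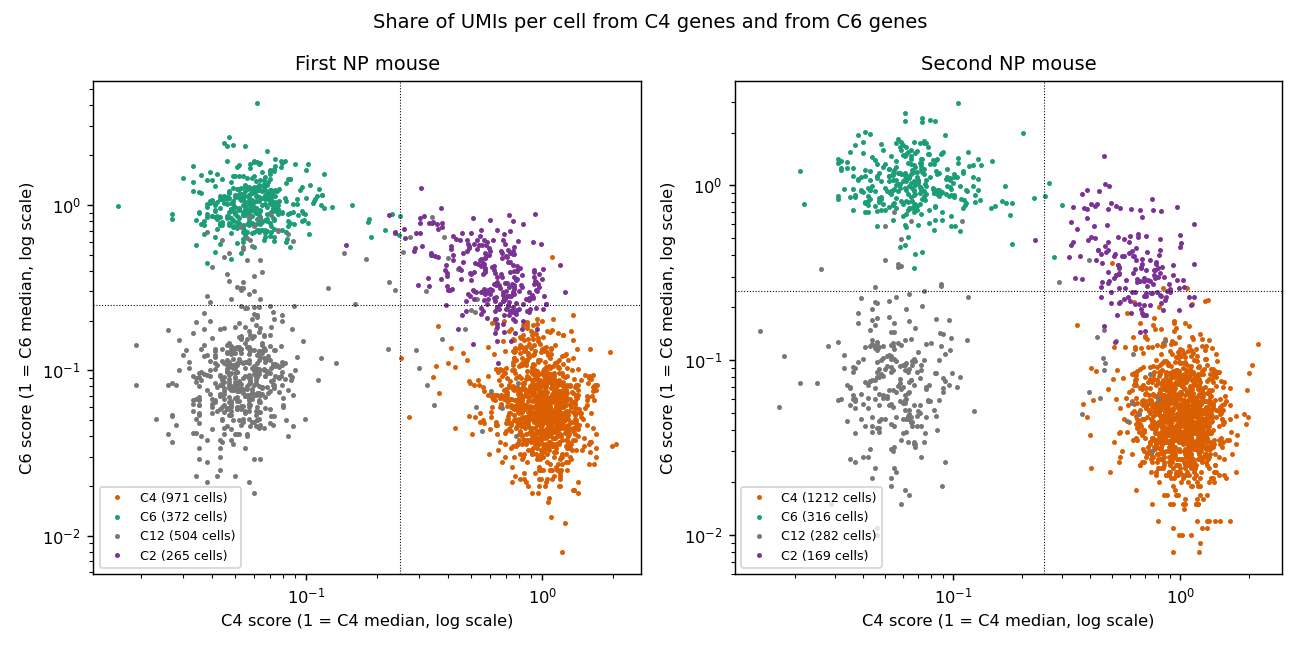
C4 score (horizontal axis) and C6 score (vertical axis) of each cell, log scales, in C4, C6, C12 and C2 of the 2 NP mice, with 1 at the median of C4 and of C6. Dotted lines mark 0.25, and 214 and 125 C2 cells lie above both lines.

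Doublet scores were higher in C2 than in its neighbours. The Scrublet score, which compares each cell with simulated sums of 2 cells of its library, was at a median of 0.110 and 0.138 in C2, 0.0490 and 0.0590 in C4, 0.0256 and 0.0264 in C6, and 0.0300 and 0.0223 in C12. The caller's threshold was 0.350 and 0.339. It marked 0.356% and 0.564% of the barcodes, 0 and 2 of them in C2, and so few calls do not show the caller to have worked on these libraries. The part of doublets in the profile of C2 was not tested. Markers of other lineages were low in C2. The 11 basal markers summed to 228 and 123 CPM in C2, beside 195 and 90.9 in C4, 247 and 168 in C6, and 18293 and 18684 in C12, and Acta2 was at 65.3 and 35.8 CPM. Of these Tagln was called higher than in C4, at 32.9 and 17.6 CPM in C2, 14.1 and 6.13 in C4, and 70.3 and 23.2 in C6. The 8 immune markers summed to 12.2 and 4.62 CPM in C2, with Ptprc at 0.387 CPM in the first mouse and no UMI in the second (up to 0.867 CPM). The 7 fibroblast markers summed to 30.0 and 16.8 CPM in C2, 11.1 and 25.5 in C4, and 11.8 and 197 in C6. They were thus high in C6 of the second mouse and not in C2. The 6 endothelial markers summed to 20.7 and 23.4 CPM, of which Eng, which C4 also holds at 24.2 and 26.9 CPM, made up 15.9 and 21.4.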

How the data were processed

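Single-cell libraries of 8 mice were made with 10x Genomics droplets. The values deposited for each mouse are unnormalised UMI counts, made by the authors with Cell Ranger from reads aligned to mm10 (the submitters' processing notes name STAR). The deposited annotation of the authors gives each cell's cluster and quality flag, and its mitochondrial share as a fraction. Clusters were made by the authors over all samples together, and doublets were gated out in the sort. The sort came before the cells entered droplets, and the paper states that its high loading of cells made doublets in droplets more likely.

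Cells were joined by library and barcode, and 1 barcode of the second PI library had no annotation. UMIs of 27998 genes were summed per mouse and cluster and scaled to CPM. Folds used a pseudocount of 1 CPM and a mean of at least 5 CPM. Genes were called at 2-fold, or 1.5-fold against both clusters, in both mice. The study fitted edgeR models to clusters of cells; since clusters were cut on the same counts, no test was made here. Genes named are the 8 highest and 8 lowest called against each cluster, up to 10 above or below both, the markers and members of 26 lists. Members and lists were chosen with earlier results of these data known. The weighted mean, the cell scores on C4, C6 and C12 genes and the comparison with C20 and C1 were added after seeing the data. The scripts were tested on simulated data. Total UMIs were 26903844 and 23887236 in the NP libraries. A count of 0 was taken to allow 3 counts. Alternatives were TMM scaling (edgeR 4.0.16 in R 4.3.3), thinning to 3000 or 5000 UMIs, a depth limit, removal of Scrublet calls (scanpy 1.11.5), cell means, other pseudocounts and filters, and each mouse alone. The scripts ran in Python 3.11.15 (pandas 2.3.3, numpy 2.4.6, scipy 1.17.1, matplotlib 3.10.9). Gene positions are from GENCODE (GRCm38, the same assembly as mm10), matched by gene ID for all 279 named genes. The combined matrix was not used here. Some list members are not reported here.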

Additional observations from a re-analysis of the deposited data

Results flagged for a closer look

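Outside the NP libraries, 5 cells of the first post-involution mouse and 2 of the second were assigned to C2. The 5 were picked out because they lie in a library that the comparisons above do not use and exceed the 3 cells that a count of 0 allows. They are too few for a profile of their own. No group had enough mice for a check of outlying samples.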

How the results depend on the processing

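With a pseudocount of 5 CPM the genes higher than in C4, higher than in C6 and lower than in C6 numbered 263, 429 and 202, and with a filter of 20 CPM 222, 337 and 191. Genes lower than in C4 numbered 32 after thinning to 3000 UMIs, 5 with C2 cells up to the 90th percentile of C4 and C6 depth, 7 without a filter, and 19 in either mouse alone. Genes above both numbered 15 after thinning, 2 without a filter, 0 with the depth limit, with cell means, with the larger pseudocount and with the stricter filter, and 10 to 14 in 1 mouse alone. Genes below both numbered 36 after thinning, 2 with the depth limit, 2 without a filter, and 13 to 22 in 1 mouse alone. Genes lower than in C6 numbered 457 to 543 in 1 mouse alone. The median position was 0.658 and stayed within 0.644 to 0.673 in every alternative run, with 0.647 to 0.673 in 1 mouse alone. Joint detection of Prlr and Aldh1a3 fell from a mean of 92.1% to 62.5% at 3000 and 75% at 5000 UMIs. Of 2424 folds of named genes under 6 alternatives that kept both mice, 574 moved by more than the SD of the mice and none called changed its direction. Folds in 1 mouse alone cannot move by more than that SD with 2 mice and are not counted here. With a least score of 0.2 and 0.3 in place of 0.25, cells with a C4 and a C6 score numbered 460 and 272 (364), those with a C4 and a C12 score 67 and 34 (51), and those with a C6 and a C12 score 162 and 94 (120). No paired analysis was possible because no result comes from a test, a choice made since the clusters were cut on the same counts, and the folds themselves are paired within each mouse. Thinned sums hold few UMIs, which limits genes of low level most.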

Other observations

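Junction, keratin and stress-response genes were called in C2 in a few cases. The shares called over all genes were 4.68% (higher than in C4), 7.20% (higher than in C6) and 3.56% (lower than in C6). In lists this short, 1 or 2 called genes are no result about the list. Of 8 compared tight junction genes, Cldn1 was called higher in C2 than in C4 and lower than in C6, at 57.0 and 44.8 CPM in C2, 4.26 and 1.72 in C4, and 136 and 114 in C6, and Cldn10 higher than in C6, at 77.7 and 66.2 CPM in C2 and 3.32 and 2.90 in C6. Of 9 compared keratins, Krt6a was called, at 78.3 and 102 CPM in C2, 101 and 117 in C4, and 3.32 and 8.29 in C6. Of 16 immediate-early genes, Egr1 and Nr4a1 were called higher than in C4, with Egr1 at 275 and 263 CPM in C2, 84.1 and 102 in C4, and 474 and 395 in C6. Jund lay above both clusters in each mouse but by less than 1.5-fold, at 3332 and 2736 CPM in C2, 2587 and 2197 in C4, and 2740 and 2062 in C6. The 78 compared ribosomal protein genes had list medians of 0.03 against C4 and 0.11 against C6, with none called, and the 7 compared mitochondrially encoded genes 0.00 and 0.33, also with none called. Of 8 compared antigen presentation genes, B2m and Psmb9 were called higher than in C6, with B2m, the light chain of class I molecules, at 1100 and 1074 CPM in C2, 1726 and 1563 in C4, and 370 and 353 in C6. Of 9 compared S100 genes S100a8 was called, and of the 2 compared milk protein genes Csn3 was called, while Lalba stood at 4.25 and 1.16 CPM in C2, 0.237 and 0.276 in C4, and 7.85 and 19.9 in C6.

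Transcripts of cell division were higher in the second mouse in all 3 clusters. Mki67, which was under the level filter, stood at 0.967 CPM in C2 of the first mouse and 8.67 in the second, at 0.631 and 1.999 in C4, and at 0.604 and 11.2 in C6. Top2a stood at 1.55 and 11.6 CPM in C2, 1.03 and 3.52 in C4, and 2.11 and 15.8 in C6. Of the 6 compared genes of the list, Aurka was called, higher than in C6 (beside 7.20% of all genes compared). It stood at 8.89 and 13.9 CPM in C2, 15.5 and 18.5 in C4, and 0.604 and 1.24 in C6. Among interferon-response genes, Ifit1 stood at 15.7 and 2.31 CPM in C2, 5.21 and 5.86 in C4, and 13.9 and 32.4 in C6, and none of the 7 compared was called.

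Deviations of C2 from the weighted mean of C4 and C6 were small and only in part shared by the mice, with a correlation across 5471 genes of r = 0.440 (genes are not independent, and both values of a gene share its C4 and C6 programme). The r was 0.163 in C20 and 0.345 in C1. Their sums rest on other numbers of cells (103 and 205 in C20, 107 and 385 in C1), so these r are not like measures. The genes with the highest smaller deviation were Timp3, an inhibitor of metalloproteinases, at log2 differences of 0.65 and 0.55, and Trappc10 at 0.59 and 0.51. Below it, after Mgp, Ido1 and Upk3a, came Csn3 at −0.53 and −0.51. These genes were chosen after their values were seen.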
